A study of Xenopus tropicalis with 16 samples.

Results

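Transcripts of the proteasome genes were followed in livers of female tropical clawed frogs (Xenopus tropicalis), with stranded sequencing of poly(A)-selected RNA. Members were the genes whose symbol begins with psm, followed by a letter from a to g and a digit, which found 46 of the 19921 genes listed for each library. The 16 libraries form 4 groups of 4 biological replicates: frogs that were not exposed, and frogs exposed to benzo[a]pyrene, to triclosan or to a mixture. Benzo[a]pyrene is formed in combustion and activates the aryl hydrocarbon receptor, and triclosan is an antibacterial compound. The series title speaks of chronic exposure to endocrine disruptors. The sources used here give no dose, duration or age, and do not say what the mixture held.

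The proteasome degrades proteins that carry ubiquitin chains. Its 20S core is a barrel of alpha and beta rings with the proteolytic sites inside, and the 19S cap that binds the end of the barrel recognises, unfolds and feeds in the substrate. Separate activators can bind the same ends, dedicated chaperones assemble the parts, and in immune responses some catalytic beta subunits are exchanged for immunoproteasome forms that favour peptides for presentation by class I molecules of the major histocompatibility complex.

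Levels are rescaled FPKM, that is, fragments per transcript length and sequencing depth, divided by a further scaling factor per library. Setting them side by side between genes rests on the transcript lengths used for FPKM, which were not checked. Differences are log2 differences of rescaled FPKM + 1, tested with limma over 6919 genes that reached 1 in at least 4 of the 16 libraries. The width of the deposited confidence intervals corresponded to between 10.9 and 17.9 M fragments in a library (M, mega). At that depth a tested member rested on a median of 22.4 implied fragments per library for psmd10 to 956 for psmc5. Hepatocyte transcripts were present in every library. Of 12 listed hepatocyte markers 11, among them ttr, apoa1 and fgb, summed to 6914 to 18566 rescaled FPKM per library. The marker left out was alb, which lacked some estimates. Benzo[a]pyrene 4 and mixture 4 stood somewhat apart from the other libraries, with median rank correlations over genes of 0.828 and 0.825 against 0.856 to 0.89 for the others. Mixture 4 also had the lowest scaling factor, 0.5841, against 0.8003 to 1.339 for the others, and division by it raised its values. It had the fewest genes at a deposited FPKM of 1 or more, 4832. Values without benzo[a]pyrene 4 or mixture 4 are given for some of the results that they move.

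Of the 46 members, 39 passed the filter on low values and 36 of these were at 1 or more in all 16 libraries. The exceptions among the tested members were the base chaperone psmd10 and the immunoproteasome subunits psmb8 and psmb9. The 7 members below the filter were psmb11, psmd5, PSMD11, psme3, psme4, PSMF1 and psmb7.2, and none of them exceeded 1.78 in any library. By role, the 39 tested members comprised 7 alpha subunits, 3 structural and 3 constitutive catalytic beta subunits, 2 immunoproteasome subunits, 6 ATPases, 3 further base subunits, 7 lid subunits, 5 assembly factors, 2 activator subunits and psmc3ip. The last is a meiotic recombination factor that meets the rule by its name alone and is no proteasome subunit. The genes psma8, psmb4, psmb10 and psmg4 were not analysed here.

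The members lie on 44 scaffolds of the genome the tables use, so few of them are neighbours. The activator genes psme1 (GL173075.1, 414764 to 426321) and psme2 (GL173075.1, 439199 to 448890) are 12878 bases apart. The catalytic gene psmb5 (GL173428.1, 368022 to 370685) is followed at 7334 bases by psmb11 (GL173428.1, 378019 to 378796). Coordinates are as the deposited tables list them, and their genome build is not stated in the labels or headers.

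**Figure D1:**
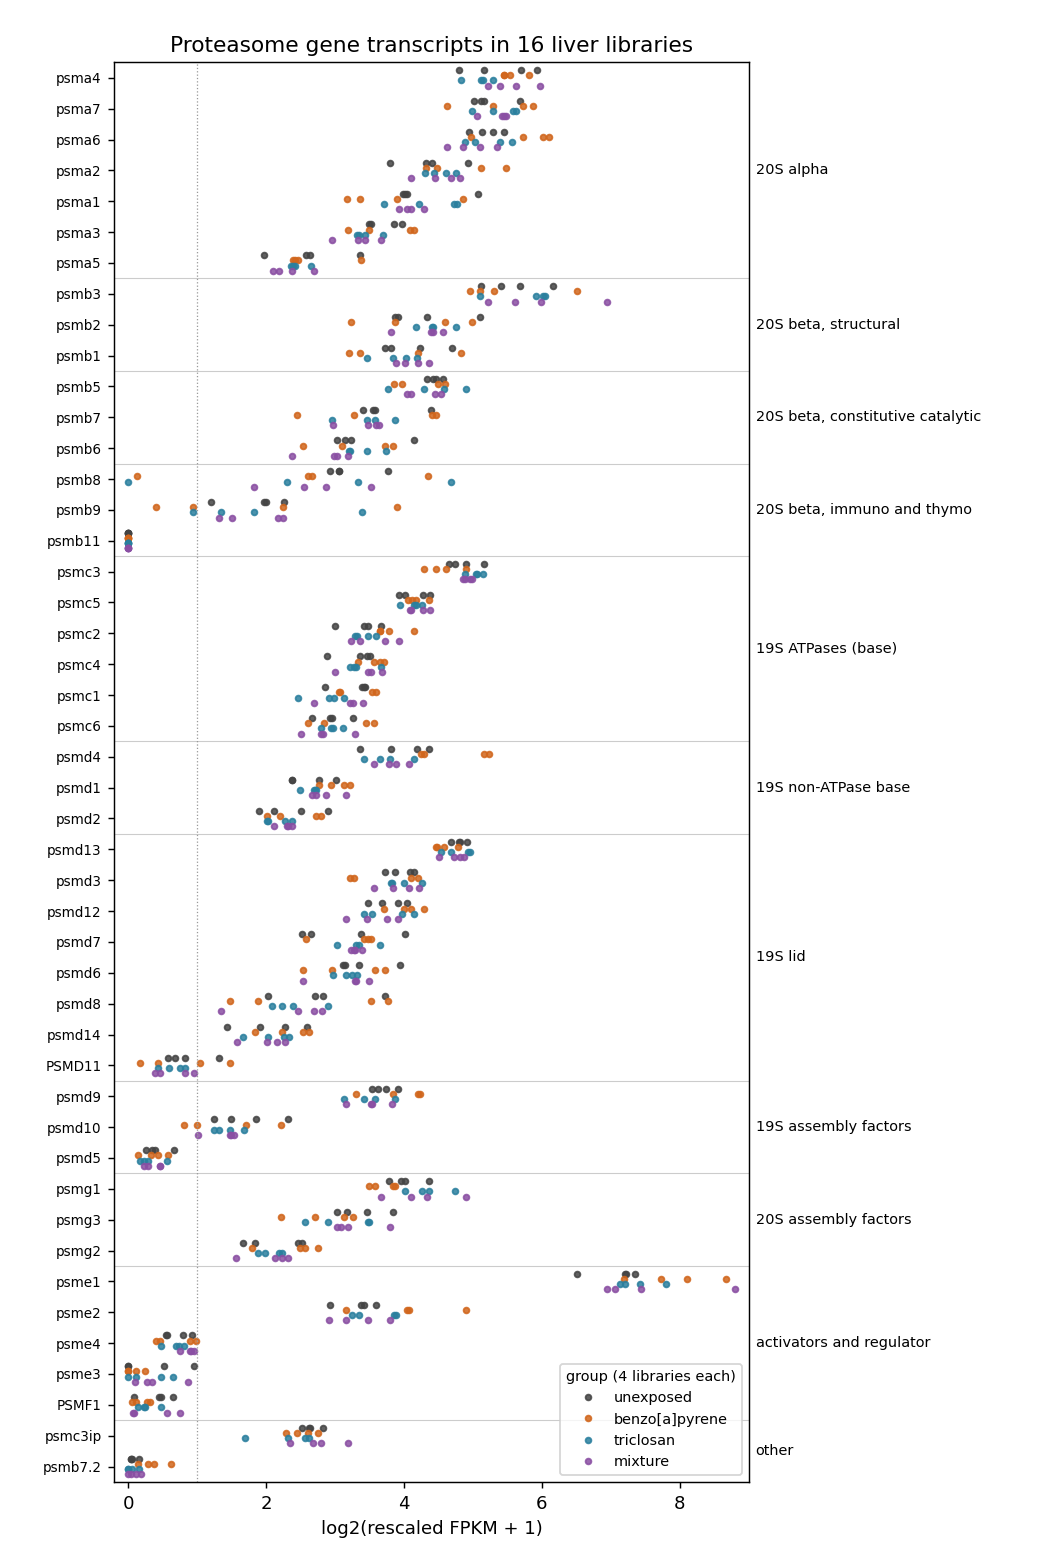
Level of each of the 46 members, grouped by role, as log2(rescaled FPKM + 1) on the horizontal axis, with 1 point per library and colours for the 4 groups. The dotted line marks a rescaled FPKM of 1. psme1 lay highest, between 89.8 and 443, and psmb11 was listed at 0 in all 16 libraries.

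The alpha subunits form the outer rings of the core and gate its entry. Averaged over the 16 libraries, psma4 was the most abundant of them at 42.4 rescaled FPKM, followed by psma7 at 40.3, psma6 at 39.5, psma2 at 23.5, psma1 at 17.7, psma3 at 11.1 and psma5 at 4.96. psma4 measured 34.8, 26.7, 50.6 and 59.9 without exposure, 54.9, 42.7, 45.4 and 42.6 under benzo[a]pyrene, 34.3, 33.8, 38.1 and 27.4 under triclosan, and 41.2, 36.1, 48.3 and 61.7 under the mixture. The triclosan livers were low and close together and lay below every benzo[a]pyrene liver, whereas the unexposed livers spanned nearly the whole range. psma5 measured 4.97, 2.91, 9.29 and 5.20 without exposure, 9.35, 4.24, 4.32 and 4.50 under benzo[a]pyrene, 4.33, 4.23, 5.28 and 4.15 under triclosan, and 3.57, 3.29, 5.45 and 4.21 under the mixture. Here 1 unexposed and 1 benzo[a]pyrene library were nearly level with each other and above all the rest, and all 4 groups overlapped.

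Among the structural beta subunits, which hold the inner rings together without a proteolytic site, psmb3 averaged 54.9, psmb2 19.7 and psmb1 15.7. psmb3 measured 41.3, 33.7, 70.9 and 50.3 without exposure, 89.9, 38.6, 30.01 and 33.5 under benzo[a]pyrene, 64.7, 63.7, 59.3 and 33.3 under triclosan, and 36.3, 47.6, 62.6 and 122 under the mixture. Its highest values were single libraries of the benzo[a]pyrene and mixture groups, and the groups overlapped. The place of mixture 4 in this order depends on its low scaling factor, 0.5841. psmb1 measured 13.0, 12.2, 24.8 and 17.7 without exposure, 27.5, 17.4, 9.24 and 8.18 under benzo[a]pyrene, 13.4, 15.3, 17.2 and 10.02 under triclosan, and 17.4, 13.8, 15.1 and 19.7 under the mixture. Both ends of its range lay in the benzo[a]pyrene group.

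The constitutive catalytic subunits carry the chymotrypsin-like (psmb5), caspase-like (psmb6) and trypsin-like (psmb7) activities. psmb5 measured 20.4, 19.3, 22.7 and 21.1 without exposure, 23.2, 21.5, 13.5 and 14.7 under benzo[a]pyrene, 22.8, 18.6, 28.8 and 12.6 under triclosan, and 15.5, 16.1, 22.3 and 20.9 under the mixture. The unexposed livers were close together, at 20.8 ± 1.43 (SD, n = 4), and fell inside the range of each exposed group but the mixture, which they overlapped. psmb6 measured 7.88, 8.38, 16.7 and 7.19 without exposure, 12.3, 13.3, 4.79 and 7.59 under benzo[a]pyrene, 8.17, 12.3, 10.03 and 8.32 under triclosan, and 8.12, 7.15, 6.92 and 4.18 under the mixture. The mixture livers all lay below the triclosan livers, though the nearest pair differed by little, and they overlapped with the other groups. psmb7 measured 9.62, 10.7, 19.9 and 11.0 without exposure, 21.1, 20.3, 4.44 and 8.67 under benzo[a]pyrene, 10.9, 10.01, 13.6 and 6.76 under triclosan, and 11.4, 11.1, 10.1 and 6.86 under the mixture. For psmb7, benzo[a]pyrene 1 and 2 were the highest of all 16 libraries and benzo[a]pyrene 3 was the lowest.

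The immunoproteasome subunits psmb8 and psmb9 replace psmb5 and psmb6, respectively, and are induced by interferon gamma in mammals. In Xenopus psmb8 belongs to the major histocompatibility complex and is known as divergent allelic forms. psmb8 measured 7.30, 6.62, 12.6 and 7.32 without exposure, 19.5, 0.0905, 5.12 and 5.34 under benzo[a]pyrene, 0, 3.93, 24.6 and 9.04 under triclosan, and 2.54, 10.5, 6.31 and 4.88 under the mixture. The 0 is the value listed for triclosan 1. No exposed group stood apart: benzo[a]pyrene and triclosan each held 1 library near 0 and 1 library above every unexposed liver. psmb9 measured 1.30, 2.93, 3.81 and 3.00 without exposure, 13.8, 0.318, 0.914 and 3.74 under benzo[a]pyrene, 0.910, 1.54, 9.44 and 2.56 under triclosan, and 1.48, 3.76, 1.84 and 3.53 under the mixture. The same libraries, benzo[a]pyrene 1 and triclosan 3, were highest for both genes, and benzo[a]pyrene 2 was lowest or next to lowest for both. psmb11, the thymus-specific catalytic subunit of mammals, was listed at 0 in all 16 libraries.

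**Figure D2:**
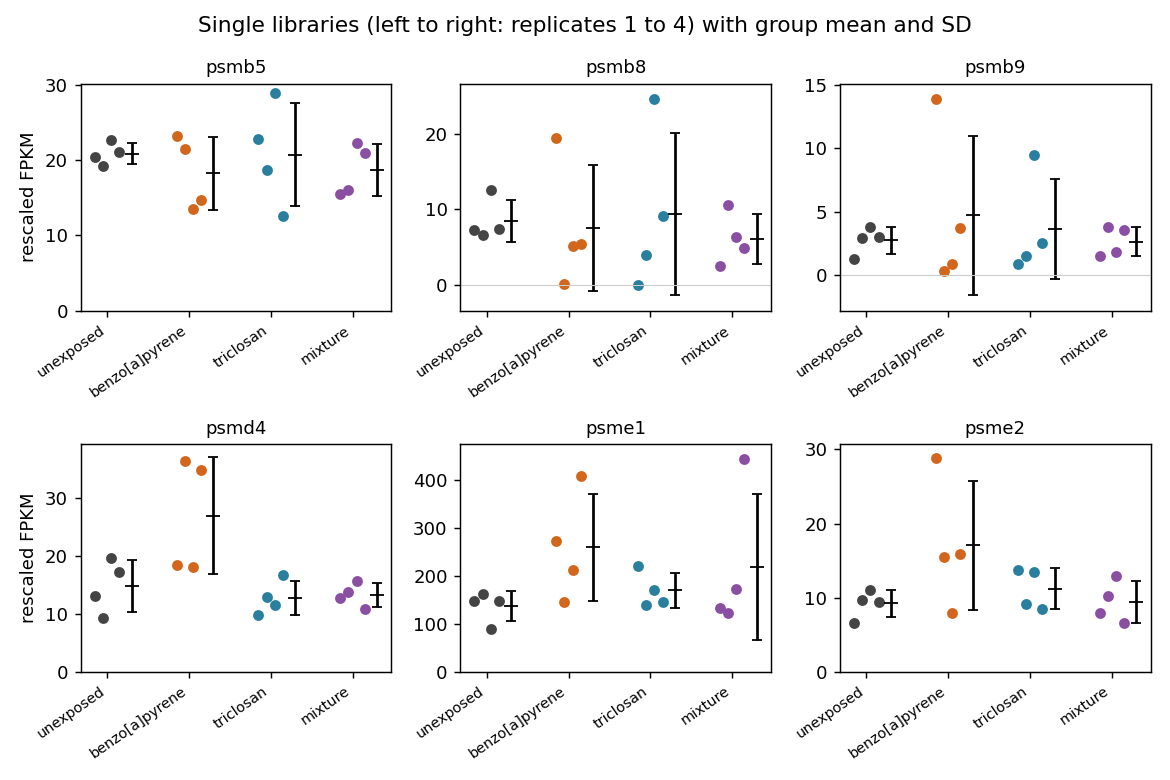
Rescaled FPKM of the catalytic subunits psmb5, psmb8 and psmb9, the ubiquitin receptor psmd4 and the activator subunits psme1 and psme2, with 1 point per library (replicates 1 to 4 from left to right) and the group mean ± SD (n = 4) beside them. psmb8 ran from 0 to 24.6 within the triclosan group, and psmd4 reached 36.5 in the benzo[a]pyrene group.

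The share of psmb8 in the summed level of psmb5 and psmb8 was 28.4% ± 4.90 without exposure, 25.0% ± 18.6 under benzo[a]pyrene, 26.3% ± 21.6 under triclosan and 23.6% ± 11.1 under the mixture (SD, n = 4). The share of psmb9 in psmb6 and psmb9 was 22.0% ± 6.92, 26.1% ± 21.9, 23.3% ± 17.9 and 29.2% ± 13.7 in the same order. These differences between group means were smaller than the SD within each exposed group. By rescaled FPKM, constitutive transcripts made up most of each pair on average. Single livers ranged from 0 to 46.0% for psmb8 and from 2.34 to 53.0% for psmb9. In implied fragments psmb9 had a median of 51.1 and psmb6 one of 39.8. Whether reads from alleles unlike the reference sequence were counted in full was not tested, so low values of psmb8, psmb9, mhc1a and tap1 are given as the tables list them and may not equal the transcript level.

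The neighbourhood of psmb8 and psmb9 in the tables was examined after their values had been seen. psmb8 (GL173674.1, 186643 to 199209) shares a scaffold with the peptide transporter genes tap1 and tap2. psmb9 (GL173531.1, 865 to 5081) shares one with the class I gene mhc1a (GL173531.1, 12921 to 68848), the class II gene mhc2a and the chromatin reader brd2 (GL173531.1, 186860 to 200706). mhc1a measured 2.79, 1.93, 10.1 and 3.13 without exposure, 18.1, 0.339, 2.01 and 6.23 under benzo[a]pyrene, 0.0719, 4.42, 11.1 and 6.46 under triclosan, and 3.50, 8.96, 2.98 and 2.30 under the mixture. Its lowest libraries, triclosan 1 and benzo[a]pyrene 2, were those in which psmb8 was 0 or near 0, and its highest, benzo[a]pyrene 1 and triclosan 3, were those in which psmb8 was highest. tap1, which never exceeded 0.803, was listed at 0 in triclosan 1 and benzo[a]pyrene 2 and in no other library. brd2 ranged only from 3.39 to 6.62, and measured 6.62 in benzo[a]pyrene 2 and 4.46 in triclosan 1. mhc2a followed this order only in part, with 0.314 in triclosan 1 and 7.89 in triclosan 3, but 1.51 in benzo[a]pyrene 2 and 1.31 in benzo[a]pyrene 1. After group means were removed, mhc1a and psmb8 correlated at r = 0.914 over the 16 libraries, psmb9 and psmb8 at 0.84, and brd2 and psmb8 at -0.417. With psmb8, mhc2a was at 0.668, tap2 at 0.643 and tap1 at 0.607. The remaining genes listed on the 2 scaffolds were at -0.391 to 0.379. These are descriptions of libraries that share their depth and scaling.

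**Figure D3:**
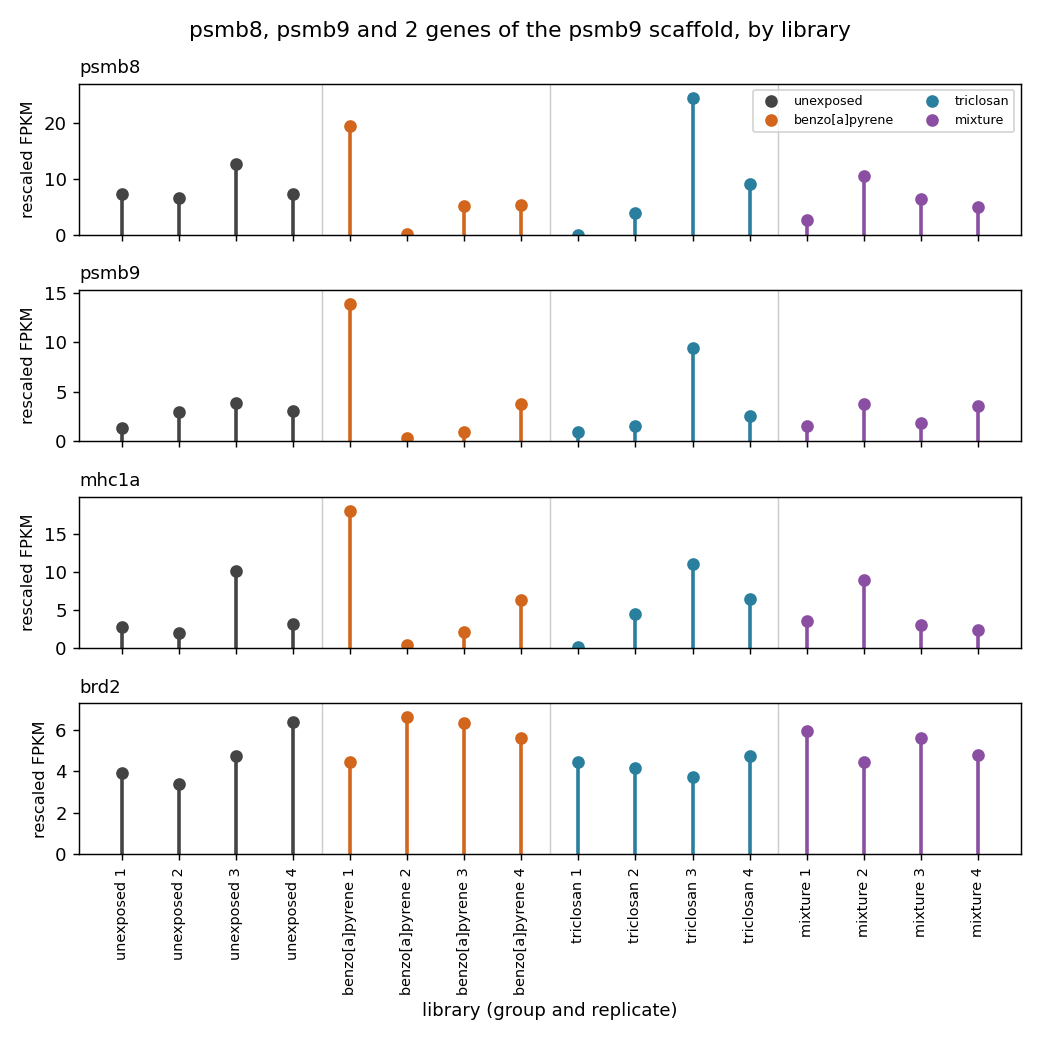
Rescaled FPKM of psmb8, psmb9, mhc1a and brd2 in each of the 16 libraries, with vertical lines from 0 and colours for the groups. psmb8 and mhc1a were both lowest in triclosan 1 and benzo[a]pyrene 2 and highest in benzo[a]pyrene 1 and triclosan 3, whereas brd2 stayed between 3.39 and 6.62.

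Leukocyte markers moved partly with psmb8 and psmb9. The 8 lymphocyte markers in the tables, of 10 listed, summed to 1.91 to 3.86 without exposure, 3.75 to 9.02 under benzo[a]pyrene, 2.97 to 6.59 under triclosan and 2.24 to 2.79 under the mixture. The 4 of 8 macrophage markers in the tables summed to 61.6 to 133, 50.6 to 210, 49.6 to 176 and 33.8 to 62.9 in the same order, and the 4 of 5 granulocyte markers to 13.1 to 39.1, 3.99 to 31.9, 16.9 to 124 and 15.0 to 22.7. No marker of these 3 lists was at 0 in all libraries. A marker score, unlike these sums, is the mean over a list's tested markers of the log2 value minus its mean over all libraries. The lymphocyte, macrophage and granulocyte scores used 4, 4 and 3 tested markers. The group-centred mean of psmb8 and psmb9 correlated with the lymphocyte score at 0.619, with the macrophage score at 0.523 and with the granulocyte score at 0.606 (n = 16 libraries). Without unexposed 3 and benzo[a]pyrene 1 these were 0.632, 0.306 and 0.754. Their part in the result was not tested, and in these bulk samples fewer cells of a type and less RNA per cell cannot be told apart.

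The 6 ATPases of the 19S base unfold the substrate. psmc3 averaged 28.1, psmc5 17.0, psmc2 10.9, psmc4 9.79, psmc1 8.08 and psmc6 6.998. psmc3 measured 34.9, 25.8, 28.7 and 24.2 without exposure, 29.0, 23.4, 21.0 and 18.6 under benzo[a]pyrene, 28.6, 32.5, 34.5 and 32.0 under triclosan, and 30.1, 30.7, 27.8 and 28.6 under the mixture. Its benzo[a]pyrene livers were on the low side but overlapped with every other group. psmc6 measured 6.79, 6.58, 8.55 and 5.37 without exposure, 9.87, 10.9, 5.07 and 6.16 under benzo[a]pyrene, 6.80, 6.70, 7.69 and 5.98 under triclosan, and 6.09, 8.82, 5.93 and 4.68 under the mixture. Its highest values were those of benzo[a]pyrene 1 and 2.

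Of the other base subunits, psmd4 is a ubiquitin receptor and psmd1 and psmd2 are scaffolds on which substrate carriers dock. psmd4 measured 13.1, 9.31, 19.6 and 17.2 without exposure, 18.5, 36.5, 18.0 and 34.9 under benzo[a]pyrene, 9.71, 13.0, 11.5 and 16.7 under triclosan, and 12.8, 13.8, 15.7 and 10.9 under the mixture. Every benzo[a]pyrene liver lay above every triclosan and mixture liver, while 1 unexposed liver lay within the benzo[a]pyrene range. psmd1 averaged 6.03 and psmd2 4.06. psmd2 measured 3.33, 2.72, 6.47 and 4.69 without exposure, 5.63, 5.93, 3.02 and 3.59 under benzo[a]pyrene, 3.03, 4.18, 3.85 and 3.09 under triclosan, and 3.95, 3.32, 4.19 and 3.99 under the mixture. The groups of psmd2 overlapped, and the unexposed livers held both its lowest and its highest value.

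In the lid, psmd14 removes ubiquitin chains from the substrate and psmd7 is its partner, and the remaining subunits are mainly scaffolds. psmd13 was the most abundant at 25.5, followed by psmd3 at 14.1, psmd12 at 13.1, psmd7 at 8.87, psmd6 at 8.67, psmd8 at 5.61 and psmd14 at 3.44. psmd13 measured 29.2, 24.7, 26.9 and 27.0 without exposure, 22.9, 26.5, 21.1 and 21.2 under benzo[a]pyrene, 29.6, 24.6, 29.9 and 22.3 under triclosan, and 25.4, 21.7, 28.2 and 27.0 under the mixture. It was among the steadiest members, and its groups overlapped. The lid scaffold PSMD11 averaged only 0.712. PSMD11 measured 0.605, 0.772, 1.49 and 0.491 without exposure, 1.78, 1.07, 0.345 and 0.123 under benzo[a]pyrene, 0.347, 0.686, 0.778 and 0.505 under triclosan, and 0.772, 0.941, 0.304 and 0.380 under the mixture. Both ends of its range lay in the benzo[a]pyrene group.

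The assembly factors were of unequal level. Of the chaperones of the base, psmd9 averaged 11.9, psmd10 (gankyrin) 1.93 and psmd5 0.294. psmd9 measured 10.6, 14.0, 12.3 and 11.3 without exposure, 17.9, 17.4, 13.3 and 8.84 under benzo[a]pyrene, 9.71, 7.79, 13.6 and 10.9 under triclosan, and 10.5, 13.1, 10.6 and 7.89 under the mixture. psmd5 measured 0.273, 0.310, 0.582 and 0.199 without exposure, 0.344, 0.485, 0.263 and 0.102 under benzo[a]pyrene, 0.128, 0.1702, 0.221 and 0.483 under triclosan, and 0.374, 0.372, 0.224 and 0.167 under the mixture. Neither had a group apart from the others. Of those that help build the alpha ring, psmg1 averaged 16.6, psmg3 8.21 and psmg2 3.60. psmg1 measured 15.1, 19.6, 14.5 and 12.8 without exposure, 13.4, 10.9, 13.7 and 10.2 under benzo[a]pyrene, 25.8, 19.5, 18.2 and 15.2 under triclosan, and 11.7, 16.1, 19.1 and 28.8 under the mixture. The benzo[a]pyrene livers all lay below the triclosan livers, and the other pairs of groups overlapped. psmg2 measured 2.18, 2.59, 4.72 and 4.50 without exposure, 5.73, 4.91, 2.49 and 4.60 under benzo[a]pyrene, 2.68, 2.97, 3.68 and 3.57 under triclosan, and 4.01, 3.39, 3.68 and 1.97 under the mixture. For psmg2, whose product binds that of psmg1, no group stood apart.

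The activator subunits psme1 and psme2 form the PA28 ring, which opens the core without ubiquitin recognition. psme1 had the highest rescaled FPKM of the members, with 196 on average and 24.9% ± 8.73 of their summed level (SD, n = 16). In implied fragments it was not the highest, with a median of 797 against 956 for psmc5. psme1 measured 147, 163, 89.8 and 148 without exposure, 273, 145, 211 and 408 under benzo[a]pyrene, 221, 140, 170 and 146 under triclosan, and 132, 122, 172 and 443 under the mixture. Single libraries of the benzo[a]pyrene and mixture groups, benzo[a]pyrene 4 and mixture 4, were the highest, and these are the libraries that stood apart over all genes. The place of mixture 4 in this order depends on its low scaling factor, 0.5841. Without mixture 4 the mixture mean went from 217 ± 152 (SD, n = 4) to 142 ± 26.4 (SD, n = 3), close to the unexposed mean of 137 ± 32.2 (SD, n = 4). psme2 measured 6.63, 9.70, 11.1 and 9.40 without exposure, 28.9, 15.5, 7.91 and 15.8 under benzo[a]pyrene, 13.8, 9.15, 13.4 and 8.50 under triclosan, and 7.89, 10.2, 12.9 and 6.51 under the mixture. Here 3 of the 4 benzo[a]pyrene livers lay above all unexposed livers. The rescaled FPKM of psme1 was a median of 15.9 times that of psme2, with a range of 8.11 in unexposed 3 to 68.2 in mixture 4. In implied fragments they were closer, with medians of 797 and 153, so the ratio depends on the transcript lengths used. The other activators, the nuclear psme3 and the large psme4, averaged 0.254 and 0.679, and the regulator PSMF1 averaged 0.253. PSMF1 measured 0.362, 0.0562, 0.566 and 0.385 without exposure, 0.0382, 0.243, 0.0805 and 0.203 under benzo[a]pyrene, 0.395, 0.171, 0.1 and 0.182 under triclosan, and 0.684, 0.478, 0.0549 and 0.0450 under the mixture. All 4 groups of PSMF1 overlapped.

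The recombination factor psmc3ip averaged 5.01 and psmb7.2, a gene listed apart from psmb7, only 0.111. psmc3ip measured 6.10, 5.20, 4.71 and 5.18 without exposure, 3.89, 5.73, 5.12 and 4.47 under benzo[a]pyrene, 3.99, 2.24, 5.14 and 4.89 under triclosan, and 5.95, 4.11, 5.38 and 8.11 under the mixture. Its lowest value was in triclosan 2 and its highest in mixture 4, with all groups overlapping. That mixture 4 was highest for psmc3ip depends on its low scaling factor, 0.5841. psmb7.2 measured 0.0314, 0.0388, 0.114 and 0.0275 without exposure, 0.299, 0.532, 0.0984 and 0.223 under benzo[a]pyrene, 0, 0.0340, 0.115 and 0 under triclosan, and 0.0284, 0.142, 0.0863 and 0 under the mixture. It was listed at 0 in 3 libraries, and the groups overlapped.

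Set against each other, the subcomplexes were not at equal rescaled FPKM. That order depends on the transcript lengths used for FPKM and need not hold for fragments. The cap subunit psmc5 had a median of 956 implied fragments at a median of 16.8 rescaled FPKM. The core subunit psma4 had 362 at 41.9. The median over the 13 core members ran from 10.2 to 29.4 in the 16 libraries, with a middle value of 18.7, and that over the 16 tested cap subunits from 6.80 to 13.3, with a middle value of 9.09. Within a library the core median was 1.98 ± 0.428 times the cap median, from 1.09 in benzo[a]pyrene 4 to 2.99 in triclosan 3. By group this ratio was 2.01 ± 0.189 without exposure, 1.75 ± 0.549 under benzo[a]pyrene, 2.19 ± 0.655 under triclosan and 1.99 ± 0.150 under the mixture (SD, n = 4), so the groups overlapped. Within the core the highest member, psmb3, was 11.1 times the lowest, psma5. The order of the 39 tested levels was similar from liver to liver: ranked in each library, it correlated at 0.879 to 0.988 with the order of the means over all libraries. All members together took 0.0341 to 0.114% of the summed deposited FPKM of a library.

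Core members rose and fell together from frog to frog within the groups. After group means were removed, the 78 pairs of core members correlated at a median r of 0.673 over the 16 libraries, against 0.00447 for all pairs of tested genes. The cap subunits correlated among themselves at a median of 0.335 and with core members at 0.458, and the 5 assembly factors with core members at 0.477. Against the mean of the other core members, 27 of the 39 tested members had r above 0.5 and 10 above 0.8, where 17.8% and 1.94% of all tested genes did so against the core mean. The highest were psma1 at 0.908, psmb1 at 0.901, psmd10 at 0.898 and psma7 at 0.898. psme1 at -0.256, psmc3ip at -0.23 and the ATPase psmc2 at -0.165 were below 0, and psmd4 at 0.123 and psmg1 at 0.0298 were near it. psme2, in contrast to its partner psme1, was at 0.745. All these points share the depth and scaling of their library, and they are descriptions.

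Part of this shared variation came from few libraries. The core score, the mean over the core of each member's log2 value minus its mean over all libraries, was 0.67 in benzo[a]pyrene 1 and 0.55 in unexposed 3, and -0.49 in benzo[a]pyrene 3. Without benzo[a]pyrene 1 and unexposed 3 the median r of core pairs went from 0.673 to 0.503, and without benzo[a]pyrene 4 and mixture 4 it was 0.736. In the first case 10 of 13 core members still had r above 0.5 with the mean of the others, against 12 with all libraries. Bile duct and macrophage marker scores and library measures moved with the core score. The group-centred correlation was 0.735 with the bile duct score, 0.646 with the macrophage score, 0.395 with the hepatocyte score and 0.322 with the erythroid score. It was -0.388 with the implied number of fragments, 0.427 with the scaling factor and 0.489 with the number of genes at a deposited FPKM of 1 or more. Without benzo[a]pyrene 1 and unexposed 3 these became 0.433, 0.622, 0.187, 0.307, -0.343, 0.192 and 0.219. The bile duct, macrophage, hepatocyte and erythroid scores used 4, 4, 10 and 7 tested markers. The 5 of 6 bile duct markers in the tables summed to 255 to 438 without exposure, 178 to 347 under benzo[a]pyrene, 206 to 336 under triclosan and 210 to 400 under the mixture, and none was at 0 in all libraries. Their part in the shared variation was not tested.

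**Figure D4:**
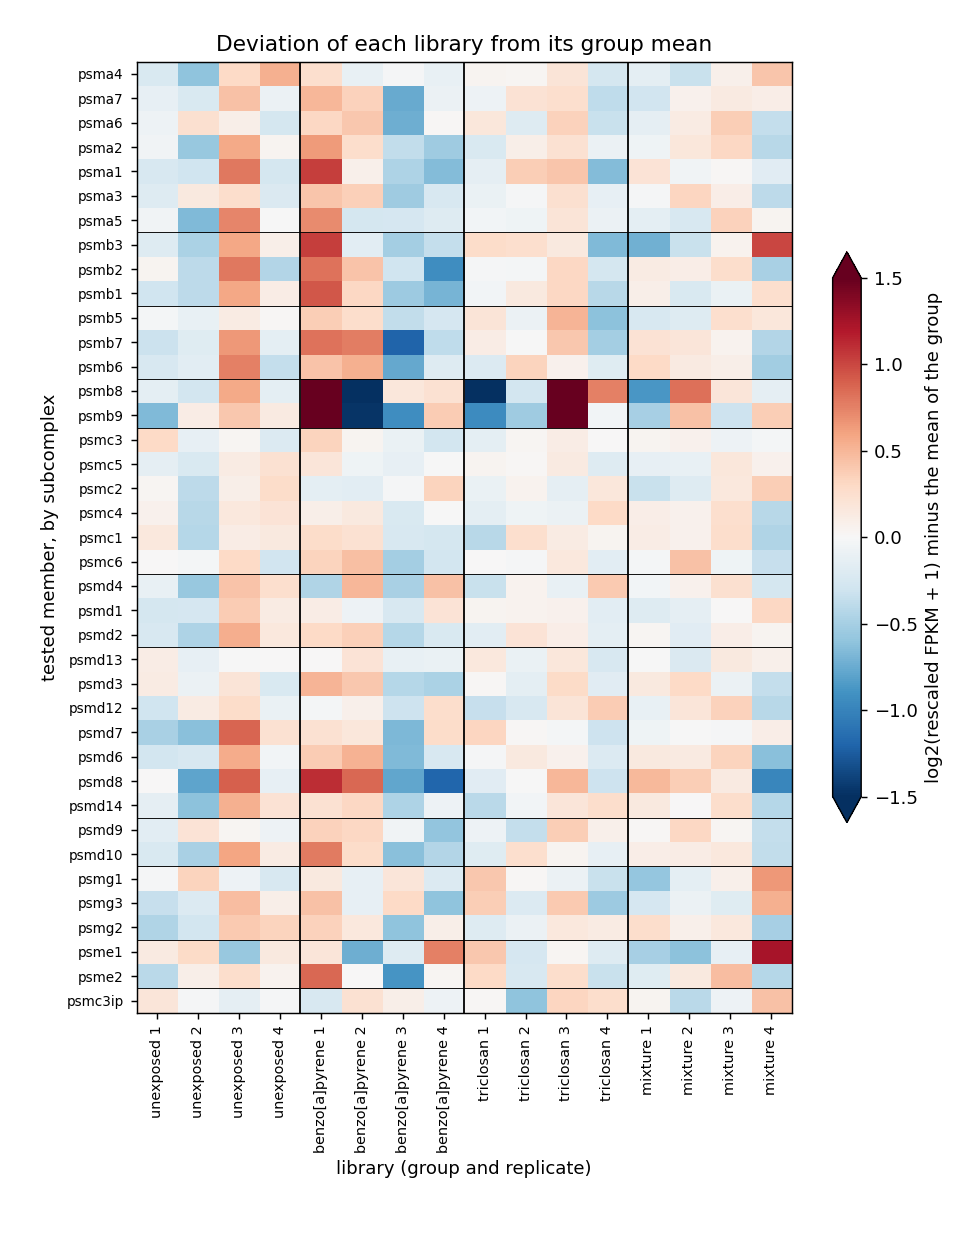
Deviation of each library (columns) from its group mean for the 39 tested members (rows, by role), as a difference in log2(rescaled FPKM + 1), red for higher and blue for lower. Core members were mostly red in unexposed 3 and benzo[a]pyrene 1 and mostly blue in benzo[a]pyrene 3, and psmb8 and psmb9 had the strongest colours.

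Members differed in how much they varied. The SD of the log2 value within groups was 1.38 for psmb8, 1.00 for psmb9 and 0.772 for psmd8. It was 0.155 for psmd13 and 0.159 for psmc5. The median over the 39 members was 0.364, near the 0.345 of all tested genes. The 10 genes outside the family whose group-centred values were most like the core mean were cyb5r3 (r = 0.942), hnrnpab, TMEM223, sec11a, tmbim4, ssbp2, eny2, ilf2, eif1ad and ywhae (r = 0.908), over 16 libraries. They are named as a description of these libraries.

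The comparison of benzo[a]pyrene with unexposed livers asked whether that exposure changed proteasome transcripts. No member passed the test, and the 39 tested members were centred near no difference, with a median log2 difference of 0.02 against 0.00 for all tested genes. psmd4 had the smallest p, with 27.0 ± 10.1 in benzo[a]pyrene against 14.8 ± 4.54 in unexposed livers (SD, n = 4) and a log2 difference of 0.80 (SE 0.28, 95% interval 0.21 to 1.39, limma adjusted p = 0.227). The psmd4 difference rested mainly on benzo[a]pyrene 2 and 4, at 36.5 and 34.9. Benzo[a]pyrene 1 and 3 measured 18.5 and 18.0, within the unexposed range of 9.31 to 19.6. psme2 had 17.0 ± 8.71 against 9.20 ± 1.86 and a log2 difference of 0.71 (SE 0.31, adjusted p = 0.3196), which was 0.43 without benzo[a]pyrene 1. psme1 had 259 ± 112 against 137 ± 32.2 and 0.85 (SE 0.39, adjusted p = 0.336). The psme1 difference rested partly on benzo[a]pyrene 4, at 408, as benzo[a]pyrene 1 to 3 measured 273, 145 and 211. Members called numbered 0 of 39 where 0.0289% of all tested genes were called. At an unadjusted p below 0.05 there were 4 members, psmd4, psme2, psme1 and psmd1, all higher, where 14.5% of tested genes were below it and 8.47% were below it and higher. Groups did not overlap for 0 members, against 7.75% of tested genes. Differences were positive for 56.4% of members and 50.4% of all tested genes. By role they were positive for 6 of 7 alpha subunits, 5 of 6 ATPases, 3 of 3 non-ATPase base subunits, 3 of 7 lid subunits, 2 of 5 assembly factors, 2 of 2 activator subunits and 1 of 2 immunoproteasome subunits. They were positive for 0 of 3 structural and 0 of 3 constitutive catalytic beta subunits, with -0.08 to -0.22, and negative for psmc3ip. The interval of the difference lay within 1 on the log2 scale to either side for 29 of the 39 members. It was widest for psmb8, from -2.62 to 1.09.

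Erythroid markers moved partly with psmd4, and more closely with some other members. The 8 erythroid markers with an estimate in every library summed to 1585, 2182, 921 and 2271 in benzo[a]pyrene livers 1 to 4, of which the second and last had the high psmd4 values. Their sum was 437 to 750 without exposure, 384 to 888 under triclosan and 384 to 1152 under the mixture. Of the 12 listed, 10 were in the tables, epb42 was at 0 and hba1 and hbg1 lacked some estimates. The group-centred correlation with the erythroid score was 0.521 for psmd4, 0.578 for psme2, 0.674 for psma6 and -0.329 for psme1 (n = 16 libraries). It was 0.685 for psmc4, 0.661 for psmd12 and 0.631 for psmd6, all above psmd4, and -0.0547 for psmd1. With the other marker scores, psmd4 was at -0.529 for granulocyte, -0.338 for bile duct, -0.27 for macrophage, -0.142 for hepatocyte and -0.0679 for lymphocyte markers. The part of erythroid or other markers in these differences was not tested.

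Between triclosan and unexposed livers no difference in these genes was called, which does not show that there was none. 0 members were called, as were 0% of tested genes, and the median difference was -0.01 for members and -0.00 for all tested genes. psmc1, an ATPase, had the smallest p, with 6.41 ± 1.38 against 8.83 ± 1.74 (SD, n = 4) and a log2 difference of -0.41 (SE 0.22, limma adjusted p = 0.965), or -0.27 without triclosan 1. psmc1 measured 4.49, 7.73, 6.92 and 6.49 in triclosan and 9.85, 6.24, 9.49 and 9.74 in unexposed livers, so that 1 unexposed liver lay among the triclosan livers. psmc3ip followed with 4.07 ± 1.32 against 5.30 ± 0.581 and -0.35 (adjusted p = 0.965), or -0.15 without triclosan 2. At an unadjusted p below 0.05 there were 0 members, against 4.36% of tested genes, and groups did not overlap for 0 members, against 2.79%. The interval lay within 1 to either side for 33 of 39 members, and reached further for the other 6, among them psmb8, psmb9 and psme1.

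In mixture livers 0 members were called, where 0% of tested genes were, and the median difference from unexposed was -0.06 for members and -0.02 for all tested genes. psmb6 had the smallest p, with 6.59 ± 1.69 against 10.03 ± 4.46 (SD, n = 4) and a log2 difference of -0.50 (SE 0.31, limma adjusted p = 0.766). The unexposed mean of psmb6 rested on unexposed 3 at 16.7, as the other 3 lay between 7.19 and 8.38, and the difference was -0.24 without it and -0.32 without mixture 4. The alpha subunit psma3 followed with 9.33 ± 2.04 against 12.2 ± 2.17 and -0.36 (adjusted p = 0.766), or -0.23 without mixture 4. psma3 measured 10.5, 13.5, 14.6 and 10.3 in unexposed and 9.04, 11.7, 9.85 and 6.74 in mixture livers, which overlap. At an unadjusted p below 0.05 there were 0 members, against 6.56% of tested genes, and groups did not overlap for 0 members, against 4.52%. Differences were positive for 38.5% of members and 47.8% of all tested genes, and those of the 3 constitutive catalytic subunits were -0.16 to -0.50. The interval lay within 1 to either side for 32 members.

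**Figure D5:**
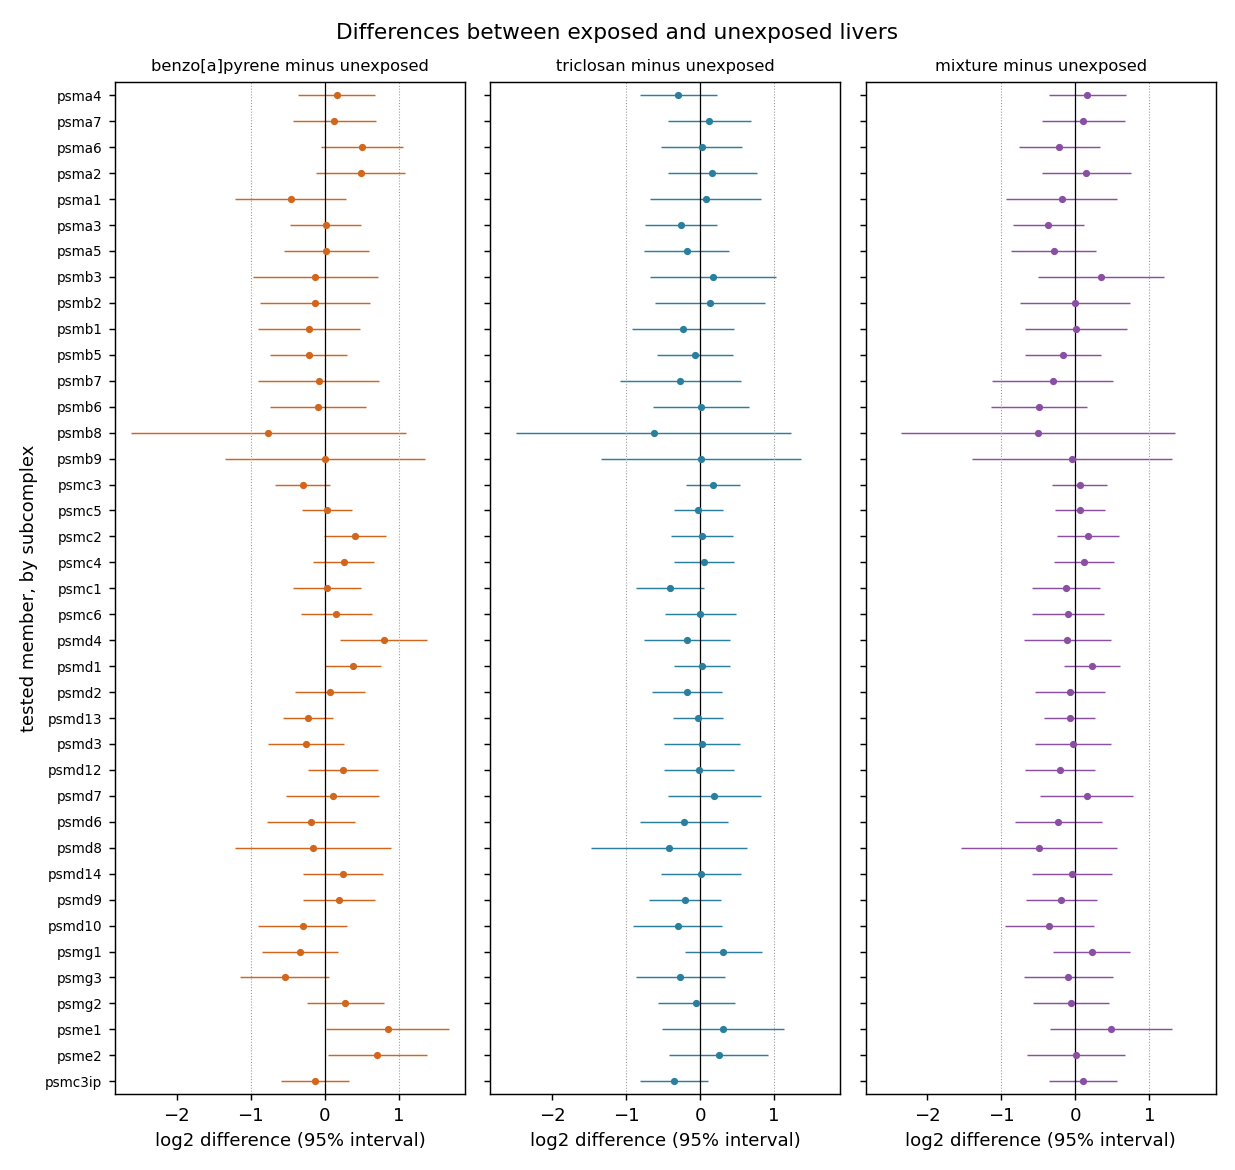
Difference of each exposed group from unexposed for the 39 tested members, in log2(rescaled FPKM + 1), as points with 95% intervals from limma. No member was called in any of the 3 panels, and the highest points were psme1 at 0.85 and psmd4 at 0.80 in benzo[a]pyrene livers.

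The exposed groups were also compared with each other. These comparisons share libraries with those above, so they are not independent of them. Between the mixture and benzo[a]pyrene, 0 members were called where 0.0723% of tested genes were, and the median difference was -0.14 for members, or 0.04 without benzo[a]pyrene 1, and -0.03 for all tested genes. psmd4 had 13.3 ± 2.04 in mixture livers against 27.0 ± 10.1, a log2 difference of -0.91 (SE 0.28, limma adjusted p = 0.201), and its groups did not overlap. It was the only such member, against 5.55% of tested genes and 3.14% with the mixture lower. psma6 measured 27.9, 33.4, 39.9 and 23.8 in mixture and 63.4, 68.0, 30.4 and 52.0 in benzo[a]pyrene livers, and differed by -0.72 (SE 0.26, adjusted p = 0.263). Only benzo[a]pyrene 3 lay within the mixture range. At an unadjusted p below 0.05, psmd4, psma6 and psme2 were lower and psmg1 higher, 4 members where 13.1% of tested genes were below it, 7.54% lower and 5.58% higher.

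Between the mixture and triclosan, 0 members were called where 0% of tested genes were, and medians were -0.04 for members and 0.00 for all tested genes. psmc3ip differed by 0.45 (SE 0.22, limma adjusted p = 0.998), or by 0.25 without triclosan 2. psma4 differed by 0.46 (SE 0.24, limma adjusted p = 0.998), which was 46.8 ± 11.1 against 33.4 ± 4.44 (SD, n = 4). The psma4 difference rested partly on mixture 4, at 61.7, as mixture 1 to 3 measured 41.2, 36.1 and 48.3. The rank of mixture 4 among these depends on its scaling factor, 0.5841, the lowest of the libraries. At an unadjusted p below 0.05 there were 0 members, against 2.89% of tested genes. Only the groups of psmb6 did not overlap, with 4.18 to 8.12 in mixture and 8.17 to 12.3 in triclosan livers, against 2.53% of tested genes and 1.37% with the mixture lower.

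Between benzo[a]pyrene and triclosan, 0 members were called where 0.0867% of tested genes were, and the median difference was 0.18 for members, or -0.03 without benzo[a]pyrene 1, and 0.02 for all tested genes. psmd4 again had the smallest p, with a log2 difference of 0.98 (SE 0.28, limma adjusted p = 0.1496), and psmc3 followed with 22.98 ± 4.45 against 31.9 ± 2.45 and -0.47 (SE 0.17, adjusted p = 0.264). At an unadjusted p below 0.05 psmd4 was higher and psmc3 and psmg1 were lower, 3 members where 13.9% of tested genes were below it, 7.99% higher and 5.88% lower. Groups did not overlap for 5 of the 39 members, against 6.46% of tested genes, 4.06% higher and 2.4% lower. psmd4, psmd1, psmc2 and psma4 were higher in benzo[a]pyrene livers and psmg1 lower. psmd1 measured 5.84 to 8.34 against 4.64 to 5.61, and psmc2 11.5 to 16.6 against 8.76 to 11.0. Intervals within 1 to either side were found for 26, 33 and 27 members in these 3 comparisons.

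Genes that work with the proteasome but carry another name were listed in 5 groups, of which 25 genes were tested. limma called 0 of them, higher or lower, in each of the 6 comparisons. With an unadjusted p below 0.05 as the limit, benzo[a]pyrene against unexposed had 2 higher, triclosan against unexposed 1 higher and the mixture against unexposed 0. Among the exposed groups 5 were higher in benzo[a]pyrene than in triclosan, 2 were higher in the mixture than in triclosan, and 1 was lower in the mixture than in benzo[a]pyrene. The shares of all tested genes below that limit in either direction were, in the same order of comparisons, 14.5%, 4.36%, 6.56%, 13.9%, 2.89% and 13.1%. By direction, 8.47% were below it and higher in benzo[a]pyrene than in unexposed livers. The share was 7.99% for higher in benzo[a]pyrene than in triclosan, and 7.54% for lower in the mixture than in benzo[a]pyrene. Of partners of the proteasome, 9 of 14 listed were tested, among them pomp, the maturation factor of the core, at 17.1 on average and the ubiquitin receptor adrm1 at 8.40. pomp measured 22.2, 13.4, 20.7 and 18.97 without exposure and 17.2, 18.2, 14.7 and 4.08 under the mixture, a log2 difference of -0.59 (adjusted p = 0.766). Mixture 4 lay below the other 7 of these libraries, and without it the difference was -0.14. In benzo[a]pyrene livers the shuttle factor rad23b had 16.1 against 11.7, a difference of 0.37 (adjusted p = 0.534), which was 0.16 without benzo[a]pyrene 2 and 0.61 without benzo[a]pyrene 3.

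Of the ubiquitin genes and E1 enzymes 5 of 6 listed were tested. The ubiquitin fusion rps27a, which also encodes a ribosomal protein, averaged 11200, and the polyubiquitin gene ubc 76.4. ubc measured 111, 121, 83.3 and 76.3 in triclosan and 69.7, 85.6, 46.9 and 48.1 in unexposed livers, which overlapped, with a log2 difference of 0.66 (adjusted p = 0.965). It was the only one of the 25 at an unadjusted p below 0.05 in that comparison.

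The VCP segregase extracts ubiquitinated proteins from complexes and membranes for the proteasome. vcp averaged 36.6, and its cofactor ufd1l 6.18. ufd1l measured 5.05, 2.01, 6.13 and 5.61 without exposure, 9.65, 9.26, 6.07 and 10.2 under benzo[a]pyrene, 4.40, 5.26, 3.72 and 4.11 under triclosan, and 5.56, 7.17, 8.28 and 6.28 under the mixture. Of the benzo[a]pyrene livers, 3 lay above every other library, and the difference from unexposed was 0.83 (SE 0.25, adjusted p = 0.169), or 0.55 without unexposed 2. With irf1 it made up the 2 of 25 genes at an unadjusted p below 0.05 there. The list for the route by which NRF1 (nfe2l1) raises proteasome genes in mammals also held nfe2l2 and keap1, which lie beside that route. Of its 7 genes in the tables, 3 were tested, namely ddi2, nfe2l2 and keap1. On the route itself, ddi2 averaged 0.806. nfe2l1 itself averaged 0.604 and was below the filter, and its relative nfe2l2 averaged 14.1 and had a difference of -0.39 in triclosan livers (adjusted p = 0.976), or -0.23 without unexposed 3.

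Of 11 genes for antigen presentation and interferon factors, 3 were tested. irf1, an interferon-responsive transcription factor, measured 16.5, 9.87, 8.07 and 12.1 in benzo[a]pyrene and 5.52, 8.41, 3.33 and 7.29 in unexposed livers, which overlapped, with a log2 difference of 0.84 (SE 0.27, adjusted p = 0.197). It was lower in mixture than in benzo[a]pyrene livers by a log2 difference of -0.90 (adjusted p = 0.196). B2M, the light chain of class I molecules, measured 84.9, 64.4, 171 and 82.9 without exposure, 600.5, 349, 46.0 and 34.0 under benzo[a]pyrene, 70.7, 105, 213 and 66.0 under triclosan, and 78.2, 112, 88.8 and 17.8 under the mixture. All groups overlapped, and single libraries set the differences of B2M from unexposed. The difference was 0.52 for benzo[a]pyrene (adjusted p = 0.796) and -0.19 without benzo[a]pyrene 1. It was 0.11 for triclosan (adjusted p = 0.998), and -0.25 without triclosan 3 and -0.07 without unexposed 2. For the mixture it was -0.60 (adjusted p = 0.863) and -0.03 without mixture 4.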

How the data were processed

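RNA from female liver was sequenced as stranded mRNA libraries, per the labels' protocols. The authors deposited gene-level FPKM with confidence intervals and a status, and the submitters' processing notes name, without roles, Cufflinks 0.0.7, TopHat, TopHat2 0.6, Bowtie 0.12.7 and Trimmomatic 0.32.1. Estimates with a status other than OK (54 in 10 genes, 0 in members) were treated as missing. Each library was rescaled with a median-of-ratios factor taken from the 3959 genes at 1 or more in all 16 libraries. Genes with rescaled FPKM of at least 1 in at least 4 libraries and at least 3 estimates per group were tested. Values were log2(rescaled FPKM + 1), on which changes of low genes are understated. limma 3.58.1 (R 4.3.3; trend and robust) fitted 1 mean per group over all 16 libraries, with 12 residual degrees of freedom, two-sided, Benjamini-Hochberg adjusted over all tested genes, and genes below 0.05 were called. The procedure was also run on simulated data with independent normal noise for each gene. That cannot show how it behaves with members that vary together or with libraries that stand apart.

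The members and lists were chosen with earlier results of these data known. Values per library were given for catalytic subunits, for the highest and lowest members of each role, and for the 2 members with the smallest p in each comparison. Of each list up to 4 genes with the smallest p were open to naming. Genes on the scaffolds of psmb8 and psmb9 were chosen after values were seen. Symbols of 46 members matched the RefSeq table. Alternatives tried were the deposited FPKM, an equal sum of FPKM, a pseudocount of 0.1, no filter, only the groups compared, a replicate block and leaving out libraries.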

Additional observations from a re-analysis of the deposited data

Results flagged for a closer look

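In 14 of the 156 groups of 4 libraries formed by the 39 tested members, 1 library lay far from the other 3 relative to the range of the group. For independent, normally distributed values chance gives about 1 in 20. These are untransformed levels of members that move together, so the count cannot show an excess over chance. Values are rescaled FPKM. In unexposed 3, psmb7 measured 19.9 against 9.62 to 11.0 in the other unexposed livers, psmb6 16.7 against 7.19 to 8.38, psma1 32.5 against 14.8 to 15.5, and psmb8 12.6 against 6.62 to 7.32. In unexposed 2, psmc1 measured 6.24 against 9.49 to 9.85. In benzo[a]pyrene 1, psma5 measured 9.35 against 4.24 to 4.50 and psmb3 89.9 against 30.01 to 38.6. In benzo[a]pyrene 3, psmd7 measured 4.98 against 9.69 to 10.5. In triclosan 3, psma5 measured 5.28 against 4.15 to 4.33. In triclosan 4, psmd1 measured 4.64 against 5.49 to 5.61 and psmc4 11.7 against 8.30 to 8.83. In mixture 4, psme1 measured 443 against 122 to 172, psmg3 13.0 against 7.14 to 8.08 and psmd10 1.01 against 1.78 to 1.90. Unexposed 3 thus held 4 of the 14, all higher, and mixture 4 held 3. The levels of mixture 4 were raised by the lowest scaling factor, 0.5841.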

How the results depend on the processing

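Members called stayed at 0 in all 90 alternative fits of the 6 comparisons, and the 12 named member differences kept their direction and their side of the threshold in all 180. With no filter, only the groups compared or the replicate block, the members' log2 differences could not change, because the group means stay the same. The median difference of members moved by less than the spread between libraries in all 90. Leaving out 1 library moves a group mean by only part of that spread, so this was largely set in advance. The median difference has no fixed sign in any comparison. Leaving out 1 library at a time, it ran from -0.10 to 0.17 for benzo[a]pyrene minus unexposed, -0.10 to 0.06 for triclosan minus unexposed, -0.13 to 0.06 for mixture minus unexposed, -0.26 to 0.04 for mixture minus benzo[a]pyrene, -0.07 to 0.04 for mixture minus triclosan and -0.03 to 0.29 for benzo[a]pyrene minus triclosan. Deposited FPKM moved the median of all genes by -0.14 for mixture minus unexposed and by -0.107 for mixture minus benzo[a]pyrene, and the members' median by -0.161 and -0.136. Of the differences of other named genes with 1 library left out, 85 kept their direction and 3 did not, all of them for B2M, which ran from -0.19 to 1.18 for benzo[a]pyrene and from -0.25 to 0.39 for triclosan against unexposed.

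Counts of genes called over all tested genes depended on the setting. For benzo[a]pyrene minus unexposed (2) they were 0 with FPKM as deposited, an equal sum, a pseudocount of 0.1, only the 2 groups compared, the replicate block, or without benzo[a]pyrene 4 and mixture 4 together, and 1 with no filter. For mixture minus benzo[a]pyrene (5) they were 3 with FPKM as deposited, 1 with an equal sum, and 0 with only the 2 groups, the replicate block or without both libraries. For benzo[a]pyrene minus triclosan (6) they were 2 with FPKM as deposited, 1 with an equal sum, 3 with the pseudocount of 0.1, 1 with only the 2 groups, and 0 with the replicate block or without both libraries. Mixture minus unexposed and mixture minus triclosan (0) had 1 each with only the 2 groups compared. Leaving out 1 library at a time gave 0 to 46, 0 to 28 and 0 to 59 for the first 3, and the highest counts came without benzo[a]pyrene replicate 3. The cause was not tested. Leaving out both libraries, the covariation without other libraries and the differences of other named genes without 1 library were chosen after seeing the data.

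Replicate numbers are not stated to pair frogs, and the 24 same-numbered pairs of libraries correlated at -0.25 to 0.263, with 6 above 0.1. With the replicate block, members called remained 0 in each comparison. Depth limits the tested members psmd10, psmb6, psmb9 and psma5 most, with medians of 22.4, 39.8, 51.1 and 52.7 implied fragments. Read counts are not in the files used here, so a value of 0 sets no detection limit.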
